A study of Mus musculus with 6 samples.

Results

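The genes described here are 59 genes of DNA replication and of the step from G1 into S phase, listed by symbol and covering cyclins and E2F factors, origin licensing and firing, polymerases and the replication fork, nucleotide supply, and chromatin assembly at the fork. All 59 were found among the 52636 genes of the deposited tables, and all 59 passed the filter on low counts that left 11561 genes for testing. RNA sequencing measured their transcripts in 6 libraries from RAW264.7, an established macrophage line of BALB/c origin. In 3 libraries, named C2S, the cells had been kept for 24 h with an extract of that name at 150 µg/ml. The other 3, named PM_control, came from cells given 0 µg/ml. The labels give neither the composition of the extract nor the meaning of PM, and the comparison rests on 1 cell line, 1 dose and 1 time. Nothing in the labels states whether replicates came from different cultures; the p-values therefore reflect only the spread among these libraries, and that spread could be technical.

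Cells commit to replication when D-type cyclins with CDK4 or CDK6, and then cyclin E with CDK2, phosphorylate the pocket proteins of the retinoblastoma family and release E2F factors, which switch on most of the genes listed here. In G1 the origin recognition complex, CDC6 and CDT1 load the MCM2 to MCM7 helicase on DNA, and geminin later blocks CDT1 so that no origin is licensed again. CDC7 with DBF4, together with CDK2, fires the origins, CDC45 and the GINS complex complete the active helicase, and polymerases with the sliding clamp PCNA copy both strands. RAW264.7 is a transformed line that divides in culture, so its cells pass through these steps without further stimulation.

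Promoter sequences are shown because letters that match the E2F binding motif were more common around the starts of these genes than of genes at large. This held among members that rose as well as members that fell or were not called. RefSeq windows of 300 bases, from 250 before to 50 after an annotated start in GRCm38.p6, were found for 48 of the 59 genes and not used for Ccnd1, Ccnd2, Ccne2, Rb1, Gmnn, Gins1, Gins2, Gins4, Mcm4, Pole and Rfc2. The letters searched were TTTGGCGC, TTTCCCGC, TTTCGCGC and TTTGCCGC, on both strands, and a gene with overlapping matches was counted once. The whole window was searched, so a match could lie before or after the start. Matches occurred in the windows of 19 of the 48 genes (39.6%), against 2.60% of 27025 genes in the RefSeq table and 5.07% of the 8722 tested genes with a window. By call, 8 of 24 members that fell, 3 of 5 that rose and 8 of 19 that were not called held them. No match was found in the 5 genes of nucleotide supply. The letters CCAAT, on either strand, occurred in the windows of 29 of the 48 members (60.4%). They occurred in 41.1% of the genes in the table and in 43.8% of the tested genes with a window.

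Stretches of 50 bases from 6 promoters show every match in capitals, written 5′ to 3′ on the strand of the gene, with GCGGGAAA and GCGCCAAA as the same letters read on the other strand. E2f3 rose, E2f7, Rbl1 and Uhrf1 fell, and Mcm5 and Cdc6 were not called. The stretches lie at chr13:29986064-29986113 (- strand, E2f3), chr10:110745220-110745269 (+ strand, E2f7), chr2:157204535-157204584 (- strand, Rbl1), chr17:56304107-56304156 (+ strand, Uhrf1), chr8:75109339-75109388 (+ strand, Mcm5) and chr11:98907992-98908041 (+ strand, Cdc6) of GRCm38.p6. Each lies before a RefSeq start and outside annotated exons. In the GENCODE annotation, Uhrf1 begins at chr17:56303321 and Cdc6 at chr11:98907801, so their stretches lie inside those gene spans.
E2f3: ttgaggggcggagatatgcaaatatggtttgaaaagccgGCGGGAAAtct
E2f7: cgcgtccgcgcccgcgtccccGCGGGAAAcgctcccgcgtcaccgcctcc
Rbl1: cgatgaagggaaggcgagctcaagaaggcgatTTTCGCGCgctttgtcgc
Uhrf1: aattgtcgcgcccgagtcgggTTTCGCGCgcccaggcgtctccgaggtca
Mcm5: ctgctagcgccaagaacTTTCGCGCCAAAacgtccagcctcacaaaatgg
Cdc6: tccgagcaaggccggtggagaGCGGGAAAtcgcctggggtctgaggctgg
The capitals begin 11 bases before the RefSeq start of E2f3, 18 before that of Rbl1, 138 before that of Cdc6, 153 before that of Mcm5, where 2 searched matches overlap, 185 before that of Uhrf1 and 198 before that of E2f7. A match is a description of the letters and not a measured binding site.

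Most of the replication and G1/S genes that differed were lower with C2S, by modest amounts, and 7 were higher. Of 59 genes, 29 fell (49.2%), 7 rose (11.9%) and 23 did not pass the test (edgeR quasi-likelihood test, adjusted p under 0.05 over all genes tested). The 2 groups differed widely: 55.4% of all 11561 tested genes were called, 28.4% lower and 27% higher, so the share of members called (61.0%) is near the background while the share that fell is above it and the share that rose below it. The median log2 fold change of the members was -0.19, against -0.002 over all genes tested. Of the members, 4 fell by 2-fold or more, namely Ccne2, Gins3, Fen1 and Ccnd1, and 1, Ccnd2, rose that far. Over all 11561 genes tested, 829 were called with such a fall and 849 with such a rise. A log2 fold change of -1 or lower was found in 6.78% of the members and in 7.28% of all genes tested. The values of the 3 libraries of one group lay wholly on one side of the other group for 42 members, 32 of them lower with C2S, against 61.1% of all genes tested.

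**Figure D1:**
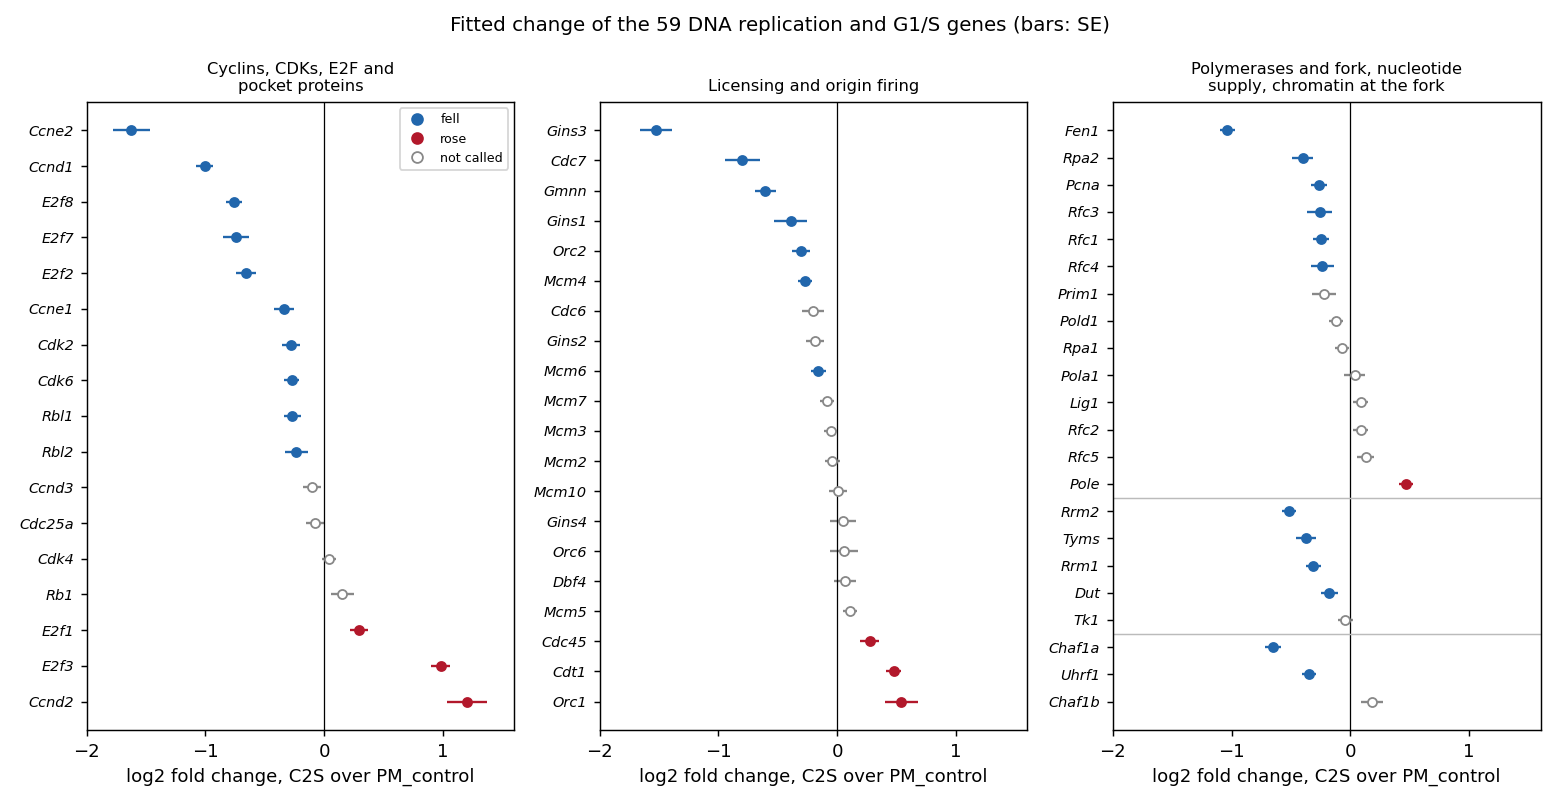
Fitted log2 fold change (C2S over PM_control, horizontal axis) of each of the 59 genes, in 3 panels by function, with bars of 1 SE and filled points for genes that passed the test. The falls reach -1.62 in Ccne2 and the rises 1.20 in Ccnd2, and the MCM genes of the middle panel lie near 0.

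Total estimated counts were 8594485 to 10491307 in the C2S libraries and 9149574 to 10665869 in the controls, so 3 counts, used as the floor of detection, corresponded to 0.281 to 0.349 CPM of the unscaled totals. CPM values of genes are counts scaled to a common library total by TMM. Counting error is the only error that this floor covers. Summed over the 59 genes, the level per transcript length was 4630, 4626 and 4544 TPM (a transcript's share of all transcripts, scaled for length) with C2S and 5635, 5560 and 5594 TPM in the controls. In the 3 C2S libraries the median member lay at -0.17, -0.18 and -0.20 on the log2 scale against the control mean. In RNA of whole cultures, fewer cells in a phase of the cell cycle and less RNA per cell cannot be told apart. Of 12 macrophage markers, 11 were tested, 6 rose and 1 fell, and their summed level was 10180 to 10580 TPM with C2S and 9524 to 9966 TPM in the controls; Mertk was below the filter. The 5 defining genes of T cells, of fibroblasts and of epithelial cells summed to at most 0.21 TPM in any library. Those of neutrophils (2.49 to 6.18 against 0 to 3.70 TPM), dendritic cells (1.63 to 2.70 against 0.61 to 2.08 TPM) and endothelial cells (0.60 to 1.10 against 0.37 to 1.21 TPM) were also low in the C2S and control libraries, with S100a9, Elane and Cldn5 at 0 in all 6. Some were nevertheless higher with C2S: the neutrophil enzyme gene Mpo had 25, 14 and 15 counts against 0 in each control (edgeR, adjusted p = 1.54e-05), and the dendritic integrin gene Itgax had 2.75, 3.37 and 3.06 CPM against 0.917, 0.708 and 0.525 CPM (log2 fold change 2.06 ± 0.38, SE; edgeR, adjusted p = 0.000211). Cd79a and Cd79b, of the B cell receptor, were below the filter, with 22, 8 and 11 counts and 16, 8 and 6 counts with C2S against 1, 3 and 0 counts and 0, 1 and 2 counts in the controls. Mpo shares 14.95% of its exon length with Gm11505. The part of such markers in the changes described here was not tested.

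The D-type cyclins, which carry growth signals to CDK4 and CDK6, moved apart, with Ccnd1 lower, Ccnd2 higher and Ccnd3 not called. Ccnd1, at chr7:144929931-144939925 in the annotation of GRCm38, measured 738, 772 and 709 CPM in the controls and 328, 394 and 384 CPM with C2S. Every C2S library was below every control, and the means were 739.5 ± 31.5 and 368 ± 35.5 CPM (SD, n = 3; log2 fold change -1.01 ± 0.07, SE; edgeR, adjusted p = 3.4e-09). Here and in what follows, ± gives the SD of 3 libraries for levels and the SE of the fit for log2 fold changes. Ccnd2, at chr6:127125162-127152193, a cyclin present at a far lower level, measured 8.07, 5.97 and 6.30 CPM in the controls and 15.03, 13.9 and 18 CPM with C2S, and rose by 1.20 ± 0.17. The groups did not overlap in these counts, but on TPM values, which take the estimated transcript length into account, Ccnd2 missed the threshold (limma on log2(TPM + 1), adjusted p = 0.0855). Ccnd3 did not pass the test, with 99.3, 93.7 and 100.2 CPM in the controls and 95.97, 81.4 and 95.9 CPM with C2S (edgeR, adjusted p = 0.277), and its groups overlapped; with library sizes alone (adjusted p = 0.0452), on TPM and with the GC trend removed it was called lower.

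Summed over the 3 D-type cyclins, the level per length was 227, 239.6 and 245 TPM with C2S and 430.4, 431 and 416 TPM in the controls. Ccnd1 made up 62.5%, 68.2% and 64.3% of that sum with C2S and 77.2%, 78.5% and 76.6% in the controls, and the share of Ccnd3 was 29.7% to 35.2% against 21.1% to 22.3%. These sums and shares, like the other ratios given here, were chosen after the values were seen and are descriptions with no test. The kinase partners moved little. Cdk6 (log2 fold change -0.28 ± 0.06) and Cdk2, the partner of cyclin E (-0.28 ± 0.08), fell with no overlap between groups in CPM. In TPM the groups of Cdk6 overlapped (79.7 in C2S replicate 1, 75.04 in PM_control replicate 3). Its call was lost on TPM without a filter (limma on log2(TPM + 1), adjusted p = 0.0873). Cdk4, the most abundant member per length (438 ± 28.1 TPM in the controls, 412 ± 43.8 TPM with C2S), did not pass the test (edgeR, adjusted p = 0.601). Cdc25a, the phosphatase that activates CDK2, measured 88.9 ± 3.44 and 84.4 ± 7.12 CPM and was not called.

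The E-type cyclins, which activate CDK2 at the start of S phase, both fell, Ccne2 much more than Ccne1. Ccne2, at chr4:11191351-11204779, measured 26.2, 20.5 and 27.1 CPM in the controls and 9.04, 6.97 and 7.81 CPM with C2S, and its log2 fold change of -1.62 ± 0.15 was the largest fall among the 59 genes (edgeR, adjusted p = 1.38e-07). All 3 C2S libraries were below 10 CPM and all 3 controls above 20 CPM. For Ccne1 the values were 61.8, 65.8 and 61.4 CPM in the controls and 49.2, 53.3 and 47.1 CPM with C2S, again without overlap but with a fall of -0.34 ± 0.08 (edgeR, adjusted p = 0.00201). Per length, Ccne1 exceeded Ccne2 by 3.15 to 3.60 times in the controls and by 6.24 to 12.9 times with C2S.

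E2F factors moved in both directions. E2f1 and E2f3, activators that drive S-phase genes, rose, E2f2, the other activator, fell, and both E2f7 and E2f8, the atypical repressors that shut the same genes off later in S phase, fell. E2f3, at chr13:29906575-29986063 in mouse GRCm38, measured 66.2, 63.9 and 57.5 CPM in the controls and 114, 134 and 123 CPM with C2S, and every treated library was above every control (log2 fold change 0.98 ± 0.08; edgeR, adjusted p = 2.16e-08). E2f1 rose less, from 61.4, 60.4 and 61.7 to 78, 72.98 and 73.6 CPM (0.29 ± 0.07), and missed the threshold on TPM (limma on log2(TPM + 1), adjusted p = 0.0752) and with the GC trend removed (edgeR, adjusted p = 0.187). E2f2 went the other way without overlap, from 70.1, 73.8 and 67.5 CPM in the controls to 45.3, 40.8 and 47.7 CPM with C2S (-0.66 ± 0.08; edgeR, adjusted p = 4.53e-06).

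E2f8, which shares 11.2% of its exon length with Gm2788, measured 102, 103 and 108 CPM in the controls and 59.6, 62.4 and 62.96 CPM with C2S (-0.76 ± 0.07; edgeR, adjusted p = 1.08e-07). E2f7 fell by a like amount, from 39.2 ± 4.12 to 23.5 ± 2.63 CPM (-0.74 ± 0.11), and missed the threshold on TPM (limma on log2(TPM + 1), adjusted p = 0.0581). Neither gene had overlapping groups in CPM. In TPM the groups of E2f7 overlapped, with C2S replicate 2 above PM_control replicate 3, while those of E2f8 did not. The summed TPM of the 3 activators over that of the 2 atypical repressors was 2.45 to 2.90 with C2S and 1.32 to 1.40 in the controls, and E2f3 over E2f2 was 2.35 to 3.09 against 0.816 to 0.911.

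The pocket proteins, which hold E2F factors inactive, moved by small amounts. Rbl1, which encodes p107, fell from 85.8 ± 2.87 to 71.2 ± 1.24 CPM (-0.27 ± 0.07; edgeR, adjusted p = 0.00376) and was not called with the GC trend removed (adjusted p = 0.356). Rbl2, which encodes p130, fell by 0.23 ± 0.09 with an adjusted p of 0.0449 in edgeR, and lost the call when any single library except PM_control replicate 3 was left out, with adjusted p between 0.0714 (C2S replicate 2 left out) and 0.226 (PM_control replicate 1 left out). Rb1, the founding member of the family, measured 24.3, 26.4 and 25.5 CPM in the controls and 30.3, 27.2 and 27.2 CPM with C2S and was not called (edgeR, adjusted p = 0.207), although it was higher with the GC trend removed (adjusted p = 0.00168). In all, 10 of the 17 genes of cyclins, CDKs, E2F factors and pocket proteins fell, 3 rose and 4 were not called. These were 58.8% lower and 17.6% higher, against 28.4% and 27% of all genes tested.

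**Figure D2:**
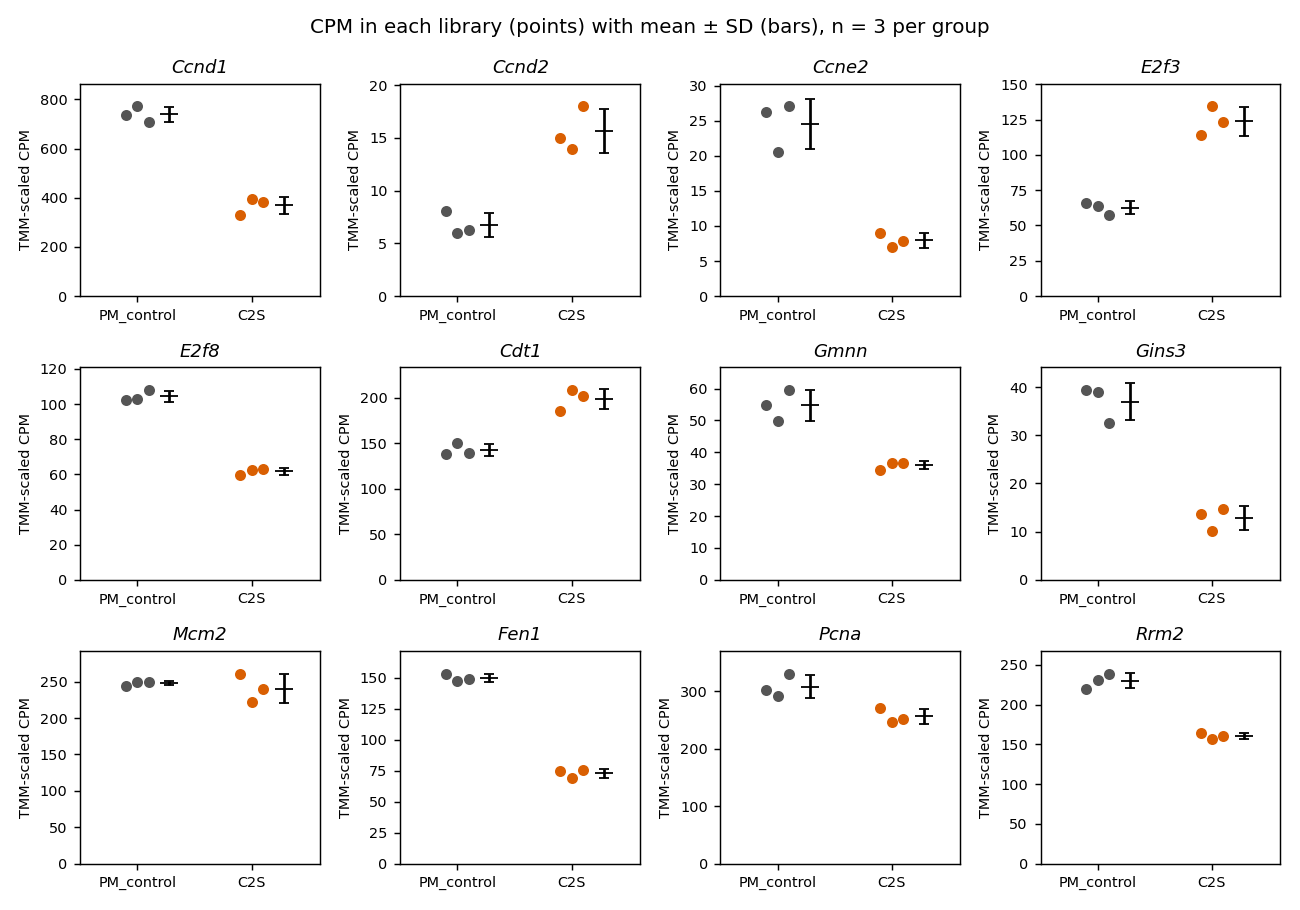
CPM of 12 of the genes in each library, with the mean and SD of the 3 libraries of each group on axes that start at 0. Ccnd1, Ccne2, E2f8, Gmnn, Gins3, Fen1, Pcna and Rrm2 lie lower with C2S, Ccnd2, E2f3 and Cdt1 higher, and the groups of Mcm2 overlap.

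Among the genes that license origins, CDT1 and its inhibitor geminin moved apart. Cdt1, the MCM loader at chr8:122568015-122573554, measured 139, 151 and 139 CPM in the controls and 186, 208 and 202 CPM with C2S (0.48 ± 0.06; edgeR, adjusted p = 8.46e-06). Gmnn, which encodes geminin and lies at chr13:24751845-24761923, fell from 54.96, 49.8 and 59.5 CPM to 34.6, 36.8 and 36.7 CPM (-0.60 ± 0.09; edgeR, adjusted p = 2.14e-05). In neither gene did the groups overlap. Per length, Cdt1 stood at 0.907, 1.06 and 0.839 times Gmnn in the controls and at 1.93, 2.03 and 1.99 times with C2S.

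The origin recognition complex moved both ways. Orc1, its regulated large subunit, rose from 14.04, 17.6 and 17.3 CPM to 23.2, 27.8 and 20.2 CPM (0.54 ± 0.14; edgeR, adjusted p = 0.00353) and was not called on TPM (limma on log2(TPM + 1), adjusted p = 0.182). Orc2, with 29.8% of its exon length shared with Nif3l1, fell from 74.4 ± 2.69 to 60.1 ± 2.47 CPM (-0.31 ± 0.08), and Orc6 did not pass the test (30.5 ± 5.30 and 31.7 ± 2.48 CPM). Cdc6, the ATPase that brings CDT1 and MCM to the origin, measured 53.1, 51.2 and 45.97 CPM in the controls and 38.7, 46.8 and 45.2 CPM with C2S, with overlapping groups (edgeR, adjusted p = 0.0711). It was called lower with library sizes alone (adjusted p = 0.012) and when C2S replicate 2 (0.0357) or PM_control replicate 3 (0.0382) was left out.

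The MCM2 to MCM7 genes, which encode the 6 subunits of the helicase ring, changed little, with log2 fold changes from -0.27 to 0.11. Of the 6, 2 fell (33.3%, against 28.4% of all genes tested) and 4 were not called. Mcm2 measured 245, 249.6 and 250.2 CPM in the controls and 260.5, 222 and 239.6 CPM with C2S, so the groups overlapped (edgeR, adjusted p = 0.582); with the GC trend removed it was lower (adjusted p = 0.00342), as were Mcm3 (0.0378) and Mcm7 (0.0485), both of which were also lower with library sizes alone (0.0454 and 0.0143) and Mcm7 on TPM (0.0204). Mcm4 fell from 233, 239 and 243 to 201, 198 and 193 CPM without overlap (-0.27 ± 0.06; edgeR, adjusted p = 0.000604), but its log2 fold change was 0.01 with the GC trend removed (adjusted p = 0.853). For Mcm6 the groups overlapped at 340.2, 382 and 360.4 and 321, 346 and 302 CPM (-0.16 ± 0.07; edgeR, adjusted p = 0.0485). Leaving out C2S replicate 1 (adjusted p = 0.105), C2S replicate 3 (0.228), PM_control replicate 2 (0.195) or PM_control replicate 3 (0.0798) each ended that call. Mcm5 was not called (378 ± 16.9 and 408 ± 13.8 CPM), and Mcm10, which helps the ring to open, stood at 97.98 ± 8.07 and 98.7 ± 5.67 CPM. Per length the 6 ring genes summed to 926 to 942 TPM with C2S and 1027 to 1072 TPM in the controls, and the highest exceeded the lowest by 2.77 to 3.02 times against 2.10 to 2.32 times.

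Among the factors that turn the ring into an active helicase, Gins3 and Cdc7 fell most. Gins3, at chr8:95633453-95645060, encodes 1 of the 4 GINS subunits and measured 39.4, 39.03 and 32.6 CPM in the controls and 13.7, 10.1 and 14.7 CPM with C2S (-1.52 ± 0.13; edgeR, adjusted p = 5.63e-08). Every C2S library was under 15 CPM and every control above 30 CPM. Gins1 fell by 0.39 ± 0.14 (edgeR, adjusted p = 0.0224), which did not hold with the GC trend removed (0.0505) or when C2S replicate 3 (0.102) or PM_control replicate 3 (0.0852) was left out. Gins4 and Gins2 did not pass the test (adjusted p = 0.714 and 0.0521 in edgeR), but Gins2 lay lower in every C2S library and passed under 9 of 21 alternatives, among them with C2S replicate 3 left out (0.0242), on TPM (limma on log2(TPM + 1), 0.0164) and with the GC trend removed (0.00159). The lowest of the other GINS genes stood at 1.18 to 1.63 times Gins3 per length in the controls and at 2.06 to 3.82 times with C2S.

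Cdc7, the kinase that fires origins, fell from 21.5, 18.1 and 18.7 CPM to 13.1, 9.62 and 10.6 CPM (-0.80 ± 0.15; edgeR, adjusted p = 0.000197). Its activator Dbf4 was not called (58.8 ± 3.71 and 61.4 ± 6.49 CPM) but was higher with the GC trend removed (adjusted p = 0.0258). Cdc45, the partner of MCM and GINS, rose from 44.9, 48.4 and 47.3 to 57.2, 54.3 and 58.2 CPM (0.27 ± 0.08; edgeR, adjusted p = 0.00801), but not when tested on TPM (limma on log2(TPM + 1), adjusted p = 0.192) or with library sizes alone (edgeR, adjusted p = 0.0595). Of the 20 genes of licensing and origin firing, 7 fell, 3 rose and 10 were not called. The share that fell (35%) was near that of all genes tested (28.4%), and 15% rose, against 27%.

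At the fork, Fen1 fell most and Pole rose, while the other polymerase genes were not called. Fen1, at chr19:10199132-10204169, encodes the flap endonuclease that trims Okazaki fragments and measured 153, 148 and 149 CPM in the controls and 74.8, 69.01 and 75.3 CPM with C2S (-1.04 ± 0.06; edgeR, adjusted p = 8.01e-10). No C2S library reached the lowest control, but 78.8% of the exon length of Fen1 is shared with Gm10143, a gene annotated over it, so its counts are uncertain. Lig1, the ligase that seals the same fragments, was not called (218 ± 16.7 and 232 ± 6.62 CPM). Pole, the catalytic subunit of the leading strand polymerase, rose from 113, 116 and 113 CPM to 154, 156 and 164 CPM without overlap (0.47 ± 0.06; edgeR, adjusted p = 4.74e-06). Per length its level was 40.8 ± 6.53 TPM in the controls and 44.98 ± 4.78 TPM with C2S, a ratio of 1.10 against 1.38 in counts, and the TPM test did not call it (limma on log2(TPM + 1), adjusted p = 0.412). Pola1, Pold1 and Prim1, subunits of the primase complex and of the lagging strand polymerase, were not called (log2 fold changes 0.04 ± 0.09, -0.12 ± 0.06 and -0.22 ± 0.10). With library sizes alone Pold1 (adjusted p = 0.00552) and Prim1 (0.0149) were lower, as they were on TPM (limma on log2(TPM + 1), 0.0145 and 0.0196), and Prim1 also when C2S replicate 1 was left out (0.0181). With the GC trend removed Pold1 was lower, at -0.32 on the log2 scale (adjusted p = 0.000166), and Pola1 higher, at 0.28 (0.0126).

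Pcna, the sliding clamp, fell from 303, 292 and 329.6 CPM in the controls to 271, 246 and 251 CPM with C2S (-0.26 ± 0.06; edgeR, adjusted p = 0.00204). No value overlapped, but with the GC trend removed the change was 0.02 (adjusted p = 0.791), and its estimated counts were whole numbers in none of the 6 libraries, a sign of reads shared with another locus. The clamp is loaded by replication factor C, and 3 of its 5 genes fell (60%, against 28.4% of all genes tested). These were Rfc1 (-0.25 ± 0.06), Rfc3 (-0.26 ± 0.10) and Rfc4 (-0.24 ± 0.10), while Rfc2 and Rfc5 were not called. The call of Rfc3 (edgeR, adjusted p = 0.0452) was lost without C2S replicate 2 (0.117), C2S replicate 3 (0.122), PM_control replicate 2 (0.0742) or PM_control replicate 3 (0.148). The call of Rfc4 (edgeR, adjusted p = 0.0489) was lost without each library but C2S replicate 2, with adjusted p between 0.0741 without PM_control replicate 1 and 0.16 without C2S replicate 3. Of the single-strand binding proteins, Rpa2 fell from 74.8, 71.6 and 73.2 to 49.2, 56.6 and 60.6 CPM (-0.40 ± 0.09; edgeR, adjusted p = 0.000736) and Rpa1 was not called (-0.07 ± 0.06), though it was lower with library sizes alone (adjusted p = 0.0249). Of the 14 polymerase and fork genes, 6 fell (42.9%), 1 rose (7.14%) and 7 were not called, beside 28.4% lower and 27% higher over all genes tested.

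Of the 5 members that supply deoxynucleotides, 4 were lower (80%, against 28.4% of all genes tested) and none was higher. The 10 further genes of nucleotide supply described below had a median log2 fold change of -0.01, with 4 lower and 1 higher. Rrm2, the S-phase subunit of ribonucleotide reductase, measured 219.6, 231 and 238 CPM in the controls and 164, 156 and 160.3 CPM with C2S (-0.52 ± 0.06; edgeR, adjusted p = 1.25e-06). Rrm1, its partner subunit, fell from 380.2, 411 and 367 to 305, 329.7 and 298 CPM (-0.31 ± 0.06). Tyms, the thymidylate synthase, fell from 49.6, 52.6 and 50.6 to 41.5, 37.8 and 38.4 CPM (-0.37 ± 0.08), and in all 3 genes the groups were separate. Dut, which removes dUTP, fell by 0.18 ± 0.07 (edgeR, adjusted p = 0.042) and lost the call without any single library but C2S replicate 2, with adjusted p between 0.0582 without PM_control replicate 1 and 0.199 without C2S replicate 1. Tk1, the thymidine kinase of the salvage route, was the exception at 129.9, 129.8 and 134 CPM in the controls and 119, 135 and 129 CPM with C2S (edgeR, adjusted p = 0.604); with the GC trend removed it was lower (0.0219).

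The 3 chromatin genes gave 2 falls (66.7%, against 28.4% of all genes tested). Chaf1a, the large subunit of the histone chaperone CAF-1, measured 152, 161 and 149.8 CPM in the controls and 100.5, 91.1 and 103 CPM with C2S (-0.65 ± 0.07; edgeR, adjusted p = 3.48e-07), with 52.5% of its exon length shared with Ubxn6. Uhrf1, which guides DNA methylation to new strands, fell from 332, 338 and 349.8 CPM to 266, 264 and 271 CPM (-0.35 ± 0.06; edgeR, adjusted p = 4.9e-05). Chaf1b, the second CAF-1 subunit, did not pass the test (50.9 ± 5.14 and 57.8 ± 3.92 CPM), and per length it stood at 0.544 to 0.656 times Chaf1a in the controls and at 1.05 to 1.26 times with C2S.

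**Figure D3:**
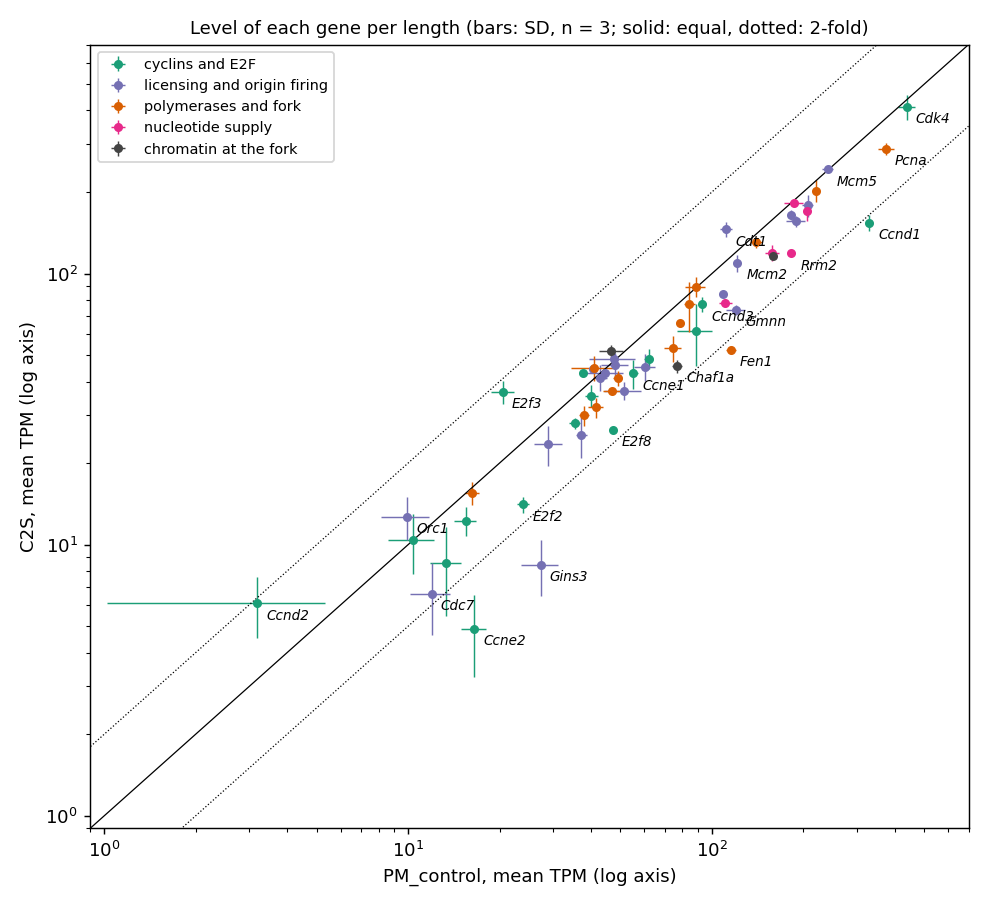
Mean level per transcript length of each of the 59 genes in the PM_control (horizontal) and C2S (vertical) libraries, in TPM on log axes, with SD bars (n = 3), a solid line of equal levels and dotted lines of 2-fold change. Most points lie under the solid line, and Gins3 and Ccne2 lie below the lower dotted line, with Fen1 and Ccnd1 just under it.

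Control levels per length ran from 3.18 TPM for Ccnd2 to 437.9 TPM for Cdk4, with a median of 55.2 TPM over the members and 22.7 TPM over all genes tested. The next highest levels after Cdk4 were those of Pcna, at 374 ± 22.7 TPM in the controls and 289 ± 14.3 TPM with C2S, and Ccnd1, at 329.9 ± 10.04 and 154 ± 10.98 TPM. Of the other members that fell by 2-fold or more, Ccne2 and Gins3 were among the lower ones and went from 16.5 ± 1.52 and 27.3 ± 3.74 TPM to 4.89 ± 1.63 and 8.43 ± 1.98 TPM.

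Counts could be affected where genes overlap, since the strand setting is not given in the sources used here. At least 10% of exon length was shared with another gene in 13 members, namely Fen1, Gins2, Chaf1a, Orc2, Ccnd1, Cdk4, Ccne2, Rfc2, Rfc4, Rbl2, E2f8, Orc1 and Rfc5. Ccnd1 shared 23.4% of its exon length and Ccne2 17.4%. The values of these 13 genes are uncertain, and no count of reads in the shared parts was made. The other 46 members gave 21 falls and 6 rises, with a median of -0.14.

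Among tested protein-coding genes outside the mitochondrial genome, those with few exons were lower with C2S. The same classes are given for the members. The median log2 fold change was -0.49 over genes of 1 to 2 exons, -0.14 over those of 3 to 5, -0.01 over those of 6 to 9, 0.05 over those of 10 to 19 and 0.08 over those of 20 or more. Members of 3 to 5 exons had a median of -1.01 (5 genes), those of 6 to 9 exons -0.26 (17 genes), those of 10 to 19 exons -0.21 (27 genes) and those of 20 or more 0.02 (10 genes). By GC content of the exons, those protein-coding genes had medians of -0.21, -0.06, 0.04, 0.11 and 0.14 in 5 equal bins, lowest first. The members had -0.26 (9 genes), -0.24 (16 genes), -0.08 (16 genes), -0.04 (11 genes) and -0.10 (7 genes). The part of exon number and GC content in the changes of the members was not tested.

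Other genes of the same pathway, 80 in number and not members, moved in both directions with more falls. Of the 76 that were tested, 32 fell (42.1%), 13 rose (17.1%) and 31 were not called, with a median of -0.15. Over all genes tested, 28.4% fell and 27% rose. Regulators of G1/S gave the largest changes. Fbxo5, which encodes the anaphase-promoting complex inhibitor EMI1, fell from 35.97, 34.2 and 32.9 CPM in the controls to 6.48, 6.49 and 5.55 CPM with C2S (-2.47 ± 0.13; edgeR, adjusted p = 7.32e-11). Wee1, the kinase that restrains CDK1 and CDK2, fell from 61.1, 61.1 and 52.3 to 12.7, 15.9 and 15.6 CPM (-1.99 ± 0.11; edgeR, adjusted p = 1.5e-10), and Lin54, the DNA-binding part of the DREAM complex, rose by 0.85 ± 0.10 and was the only one of the 14 regulators to rise, against 9 that fell.

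CDK inhibitors rose or fell by gene. Cdkn1a, which encodes p21, measured 369, 361 and 358 CPM in the controls and 748, 663 and 671 CPM with C2S (0.94 ± 0.06; edgeR, adjusted p = 1.66e-09). Cdkn1b, which encodes p27, rose from 18.4, 15.9 and 15.2 to 25.2, 24.5 and 21.3 CPM (0.52 ± 0.12). Both genes were higher in every C2S library than in any control. The call of Cdkn1b was lost on TPM without a filter (limma on log2(TPM + 1), adjusted p = 0.0556). Cdkn2c fell by 0.46 ± 0.11, Cdkn2d was not called, and Cdkn1c, Cdkn2a and Cdkn2b were below the filter. Per length, Cdkn1a stood at 0.902 to 0.967 times the summed D-type cyclins in the controls and at 2.52 to 3.05 times with C2S.

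The remaining groups of the pathway were mixed, beside 28.4% lower and 27% higher over all genes tested. Of 12 further licensing and firing genes, 5 fell and 1 rose. Orc5 (-0.86 ± 0.11) and Wdhd1, which links helicase and polymerase (-0.85 ± 0.08), fell. Mcm8 rose by 0.48 ± 0.14 (edgeR, adjusted p = 0.00988), a call lost without C2S replicate 3 (0.0533). Of 19 further fork genes, 7 fell and 4 rose, with Dna2, the nuclease that shares flap processing with FEN1, at -0.72 ± 0.08, Atad5, which unloads PCNA, at -0.71 ± 0.10, Pold2 at 0.31 ± 0.09 and Timeless, of the fork protection complex, at 0.47 ± 0.07. Of 10 further genes of nucleotide supply, 4 fell and 1 rose, with Dctd at -1.05 ± 0.11, Umps at -0.98 ± 0.08 and Slc29a1, a nucleoside transporter, at 0.23 ± 0.06. Of 9 further chromatin genes, 2 fell and 3 rose, with Hells at -0.71 ± 0.09, Supt16 at -0.45 ± 0.06, Rbbp4 at 0.31 ± 0.05 and Slbp, which binds histone mRNA, at 0.46 ± 0.07. Of 8 checkpoint genes, 4 fell and 1 rose, with Chek1 at -0.56 ± 0.12, Hus1 at -0.43 ± 0.09 and Cdc25b at 0.37 ± 0.07. The call of Cdc25b was lost on TPM without a filter (limma on log2(TPM + 1), adjusted p = 0.0509). On TPM values the calls of Mcm8, Timeless, Slc29a1, Rbbp4 and Chek1 were lost, with adjusted p of 0.0927, 0.0612, 0.247, 0.302 and 0.144 (limma on log2(TPM + 1)), and that of Pold2 was lost with the GC trend removed (0.209).

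Genes of mitosis and G2/M, given for comparison, fell in 28 of 40 cases (70%) and rose in 1 (2.5%), against 28.4% and 27% of all genes tested. Their median was -0.45, against -0.19 for the replication and G1/S genes. Mki67 (-1.46 ± 0.07) and the kinetochore gene Cenpf (-1.85 ± 0.09) fell, while Racgap1, which acts in cytokinesis, rose (0.30 ± 0.06). The difference between the lists was not tested. Falls of 2-fold or more occurred in 10 of these 40 genes and in 4 of the 59 members. A log2 fold change of -1 or lower was found in 25% of the mitosis genes, 6.78% of the members and 7.28% of all genes tested.

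**Figure D4:**
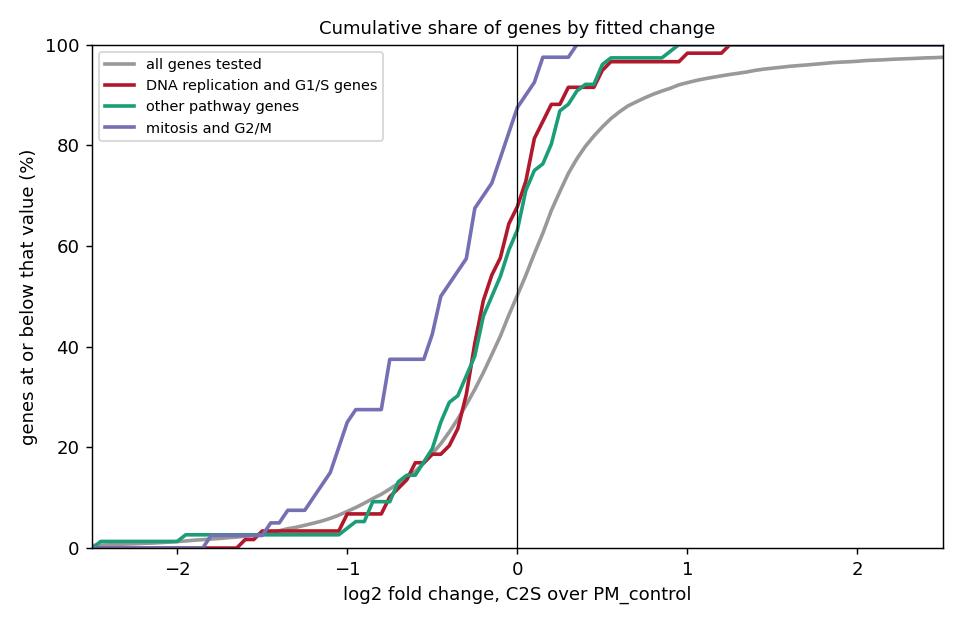
Cumulative percent of genes (vertical axis) at or below a given log2 fold change (C2S over PM_control, horizontal axis) for all 11561 genes tested, the 59 replication and G1/S genes, the 76 tested other pathway genes and the 40 mitosis and G2/M genes. The median is -0.19 for the replication and G1/S genes, -0.15 for the other pathway genes and -0.45 for the mitosis genes.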

How the data were processed

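Titles and treatment tags put the 6 RAW264.7 libraries into 3 C2S and 3 PM_control. Trizol was used to extract RNA, per the labels' protocols. Per the series design text, libraries were made with an Illumina TruSeq kit, reads were trimmed with fastp, aligned to mm10 with STAR and counted with RSEM, and the authors compared groups with edgeR. STAR, RSEM and mm10 are also named in the submitters' processing notes. No version, gene annotation or strand setting is given there (not given in the sources used here). Per the file headers, the authors deposited expected counts, TPM, FPKM and transcript lengths for 52636 genes. FPKM was not used.

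Rounded expected counts were scaled by TMM. The filterByExpr function, set to a minimum count of 10 and a minimum total of 15, kept 11561 genes holding 99.9% of counts. Groups were compared in edgeR 4.0.16 (R 4.3.3) by the quasi-likelihood F test without covariates, and p-values were adjusted by Benjamini-Hochberg over all genes tested (threshold 0.05). SE is the absolute log2 fold change over the square root of F. The common biological coefficient of variation was 7.52%. The script was tested on simulated data. Within a group, chi-square per degree of freedom was 4.30 to 6.46 between libraries, so none was a duplicate.

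Alternatives used RLE, upper quartile or no scaling beyond library size, other filters, DESeq2 1.42.0, limma-voom and limma on log2(TPM + 1) or log2(TPM + 0.1) (limma 3.58.1; genes with mean TPM of at least 1, or all), unrounded counts, a replicate block, removal of the 10 most abundant genes, of genes with non-whole counts (tolerance 0.005) or of the trend over GC content, and each library left out. Positions, exon numbers, exon overlap and GC content came from GENCODE M21 (GRCm38), which matched 52489 gene IDs and all 59 members. Promoter sequences came from RefSeq (GRCm38.p6).

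The members and lists were chosen with earlier results of these data known. Per-library values are given for the 3 largest falls and rises called in each functional group and a fixed set of core genes, and for the 2 smallest adjusted p per direction in each other list; the ratios between members were chosen after the values were seen. The sum over 1 marker list is not reported here.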

Additional observations from a re-analysis of the deposited data

How the results depend on the processing

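Of the 36 called members, 20 kept their call under each of the 21 alternatives that could be run for them, 18 lower and 2 higher (E2f3 and Cdt1). Of the 23 members not called, 10 were not called under any. Rbl2, Mcm6, Rfc3, Rfc4 and Dut lost the call with RLE normalization (adjusted p 0.0542 to 0.0744) and DESeq2 (0.0725 to 0.128), and all but Dut with the GC trend removed (0.0896 to 0.312). The choice of scale mattered most for rises. With limma on log2(TPM + 1), on log2(TPM + 0.1) and on log2(TPM + 1) without a filter, 1717, 1705 and 1915 of all genes were higher, and of the members 2, 2 and 2. Under the same 3 settings, the genes called higher were 1, 1 and 1 among cyclins and E2F, 1, 1 and 1 in licensing and origin firing, 0, 0 and 0 among polymerases and fork, and 6, 6 and 4 among the other pathway genes. The members' median was -0.28 on TPM under each. With library sizes alone it was -0.28, with 11 of 20 licensing genes and 3999 of all 11561 genes tested lower. Without the low-count filter the members' median was -0.21. Rises made up 48.8% of calls over all genes (35.9% on TPM, 38.3% with library sizes alone) and 19.4% of the members' calls (6.06% and 13.95%). The median of all genes stood at -0.09 both with library sizes alone and on log2(TPM + 1).

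With the GC trend removed, the members' median was -0.16. Of the polymerase and fork genes 2 were higher, beside 2953 of all 11561 genes tested. The log2 fold change turned positive for Mcm4 (0.014), Pcna (0.022), Bub1 (0.29), Orc3 (0.060), Orc4 (0.15) and Rpa3 (0.35). Without genes with non-whole counts, 1 chromatin gene fell, since Uhrf1 was then not tested. The cause of the other changes was not tested. Leaving out each library gave medians of -0.21 to -0.15, 24 to 28 members lower and 7 higher. Over all 11735 to 11886 genes then tested, 2981 to 3188 were lower and 2920 to 3150 higher. Where 2 libraries of a group were left, the fit pooled the spread.

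Deviations of same-numbered libraries correlated at -0.01, 0.07 and 0.03, within the -0.11 to 0.08 of differently numbered ones. With 3 libraries per group, such values cannot show whether the libraries were paired. With the replicate block, 3192 genes were higher and 3297 lower, and 7 and 28 of the members, Rfc4 being lost (adjusted p = 0.0524). Depth limits low members most: Ccnd2, at 6.78 CPM in the controls, has the widest SE of the genes that rose.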
